A study of Mus musculus with 24 samples.

Results

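The genes described here make phosphatidylcholine in the liver and run the methionine cycle that supplies its methyl groups. A total of 10 genes was named: Chka, Chkb, Pcyt1a, Pcyt2, Pemt, Bhmt, Gnmt, Mat1a, Ahcy and Cbs. Each gene was taken from the array rows annotated with its symbol alone, and where several such rows existed the row with the highest mean over all 24 livers was used. By that rule 8 of the 10 genes were measured, of 19938 genes on the array. The only row of Chkb and the 3 rows of Ahcy carry a second symbol in the annotation, so neither gene has values below. The livers came from male C57BL6 mice, 6 per group, with 1 array per mouse. The groups were WT mice on chow, Ogg1-/- mice on chow, WT mice on a high-fat diet (HFD) and Ogg1-/- mice on the HFD. Ogg1-/- mice lack 8-oxoguanine DNA glycosylase, which removes oxidized guanine from DNA, in every tissue, since the allele is not restricted to liver. All mice were housed singly and fed ad libitum for 10 weeks, starting at 10 weeks of age according to the labels, and the study's methods give an older starting age. The methods trace the Ogg1-/- allele to mice backcrossed to C57BL/6J. The comparisons ask whether loss of OGG1 moved the transcripts of this pathway on chow or on the HFD, and whether the diet moved them in either genotype.

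Phosphatidylcholine is the main phospholipid of membranes, of bile and of the surface of secreted lipoproteins. Hepatocytes make it in 2 ways. In the choline route, choline kinase (Chka, Chkb) phosphorylates choline and Pcyt1a joins the phosphocholine to CTP, which activates it. In the other route, Pcyt2 activates phosphoethanolamine on the way to phosphatidylethanolamine, which Pemt then methylates with S-adenosylmethionine. Mat1a makes S-adenosylmethionine from methionine, and Gnmt uses up the excess by methylating glycine. Ahcy hydrolyses the S-adenosylhomocysteine that every methyltransferase leaves behind. The homocysteine that results is either remethylated by Bhmt, with betaine from choline as the methyl donor, or committed to cysteine by Cbs.

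The promoters of the 3 members whose transcripts passed the test in any comparison are shown first, because the findings rest on Chka, Bhmt and Gnmt and their start regions differ in the motifs they hold. Of the 8 measured members, 6 have an entry in the RefSeq promoter table (GRCm38.p6), and Pcyt2 and Mat1a were not matched. Each line gives the 250 bases before the transcription start, 5′ to 3′ on the strand of the gene, with motif matches in capitals. The letters searched on both strands were CACGTG (the E-box bound by clock factors), TTATGNAA (a D-box), TCACNCCAC (an SREBP element), CCAAT (a common promoter box bound by NF-Y), AGGTCA (the core of nuclear receptor sites) and TGTTCT (the core of glucocorticoid receptor sites), where N is any base. A direct repeat of AGGTCA with any 1 base between the copies was searched too, and it overlaps the AGGTCA matches by construction.
Chka, choline kinase alpha, chr19:3851523-3851772, + strand: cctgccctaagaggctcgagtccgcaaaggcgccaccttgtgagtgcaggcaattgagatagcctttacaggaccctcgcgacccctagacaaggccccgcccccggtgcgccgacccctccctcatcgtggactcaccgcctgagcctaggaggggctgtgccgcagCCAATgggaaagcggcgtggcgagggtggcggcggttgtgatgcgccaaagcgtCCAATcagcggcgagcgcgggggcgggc
Bhmt, betaine-homocysteine methyltransferase, chr13:93637759-93638008, - strand: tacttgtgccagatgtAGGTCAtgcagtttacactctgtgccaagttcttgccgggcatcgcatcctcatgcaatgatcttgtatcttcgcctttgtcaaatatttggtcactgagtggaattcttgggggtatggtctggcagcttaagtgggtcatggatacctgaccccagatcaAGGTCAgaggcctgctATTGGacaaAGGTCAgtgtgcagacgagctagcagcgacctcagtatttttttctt
Gnmt, glycine N-methyltransferase, chr17:46729166-46729415, - strand: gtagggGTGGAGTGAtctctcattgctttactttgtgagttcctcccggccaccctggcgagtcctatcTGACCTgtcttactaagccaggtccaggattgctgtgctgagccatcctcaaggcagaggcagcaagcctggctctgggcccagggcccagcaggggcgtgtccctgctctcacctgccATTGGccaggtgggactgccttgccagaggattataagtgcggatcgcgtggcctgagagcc
The Chka window held 2 CCAAT matches and none of the other motifs, E-box and D-box included. The Bhmt window held 3 AGGTCA matches and 1 CCAAT match on the other strand, printed as ATTGG. The Gnmt window held 1 match each, all on the other strand, to the SREBP element, to AGGTCA and to CCAAT. Over all 32851 promoters of the table and the same 250 bases, CCAAT was found in 33.8%, AGGTCA in 14%, CACGTG in 6.02%, TTATGNAA in 3.07%, TCACNCCAC in 1.05%, the direct repeat in 0.0335% and TGTTCT in 16.1%. Among the other members with an entry, Cbs held an E-box match and 2 of the 3 Pcyt1a promoters, which overlap, held the same SREBP element match. A match is a string of letters and says nothing of binding in these livers.

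The values are log2 array signals, on which 1 unit is a 2-fold difference in signal, and levels of different genes are not compared with each other because each probe set has its own response. All 10 hepatocyte markers examined, such as Alb and Ttr, lay between 11.53 and 14.34 in every liver, against a median of 5.94 over all probe sets. Ogg1 itself was lower in Ogg1-/- livers by 0.54 on chow (SE 0.07, n = 6 per group, limma adjusted p = 3.22e-05) and by 0.59 on the HFD (SE 0.07, limma adjusted p = 2.89e-05), with no overlap between the genotypes on either diet. The files do not say which part of the transcript this probe set reads. One liver stood apart, the library of Ogg1-/- mouse 1 on chow, which had the highest score, 80.8, on the main axis of variation among the chow livers. This axis is the first principal component of the deviations of the 12 chow livers from their group means, with the members left out, and it carried 40.2% of that variation. The sample descriptions end in "fr" for all 6 WT livers on chow and for WT mouse 5 on the HFD and in "f" for the other livers. The labels do not say what this means. On chow the ending cannot be told apart from genotype, and in WT livers it can hardly be told apart from diet.

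On chow, choline kinase alpha was the member that differed between the genotypes. Chka fell in Ogg1-/- livers to about the level it had in Ogg1-/- livers on the HFD, while the 7 other measured members did not pass the test. In WT livers on chow the Chka signal ran from 8.59 through a median of 8.92 to 9.35, and in Ogg1-/- livers on chow from 7.74 through 7.96 to 8.24. Every Ogg1-/- liver lay below every WT liver. The difference was -0.95 (SE 0.13, 95% CI -1.21 to -0.69, n = 6 per group), a 1.94-fold lower signal, with an adjusted p of 0.000129 from limma with Benjamini-Hochberg adjustment over all 35556 probe sets. That is 1 of 8 members with an adjusted p under 0.05, against 0.478% of all probe sets, and 1 of 8 that also reached a fold of 1.5, against 0.242%. Groups without overlap were seen for 1 of 8 members, against 1.06% of all probe sets. Without the liver that stood apart the Chka difference was -0.95 (adjusted p = 0.000473).

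**Figure D1:**
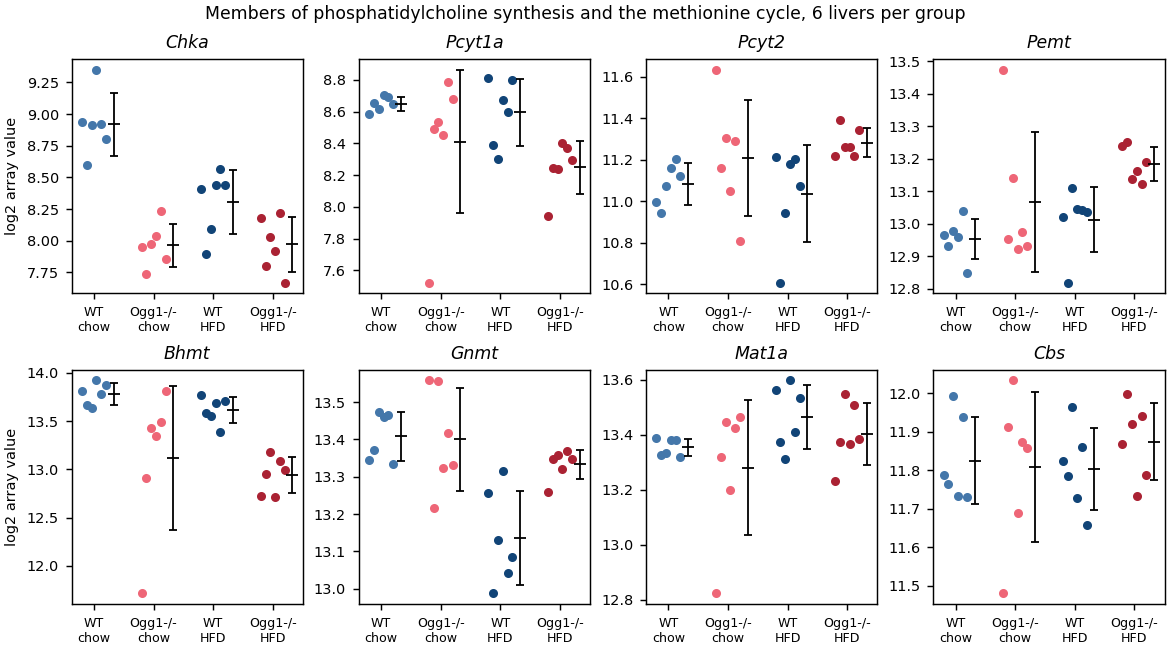
Log2 array signal (y axis, scaled separately for each gene and not starting at 0) of the 8 measured members in the 6 livers of each group (x axis), with dots for single livers in the order of their replicate numbers and a bar for the mean with its SD. Chka is highest in the 6 WT livers on chow, from 8.59 to 9.35, and Bhmt reaches 11.72 in a single Ogg1-/- liver on chow.

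The next enzyme of the choline route, Pcyt1a, did not pass on chow. Its signal was tight in WT livers, from 8.58 through a median of 8.65 to 8.71, and wide in Ogg1-/- livers, from 7.52 through 8.51 to 8.78. The lowest value belonged to the liver that stood apart, and the groups overlapped. The difference was -0.24 (SE 0.15, adjusted p = 0.395), and -0.06 without that liver. In the ethanolamine route, Pcyt2 differed by 0.13 (SE 0.11, adjusted p = 0.575) and Pemt by 0.11 (SE 0.08, adjusted p = 0.451), neither past the threshold. The members of the methionine cycle did not pass either. Bhmt had the largest difference among them, -0.67 (SE 0.21, 95% CI -1.11 to -0.22, adjusted p = 0.148). Its signal ran from 13.64 through 13.80 to 13.92 in WT livers and from 11.72 through 13.39 to 13.81 in Ogg1-/- livers, so that the groups overlapped at the upper end. Without the liver that stood apart the Bhmt difference was -0.38 (adjusted p = 0.205), and without Ogg1-/- mouse 6, the highest of its group, it was -0.80 and passed (adjusted p = 0.0425). The differences of Gnmt, Mat1a and Cbs were -0.01, -0.07 and -0.02, with confidence intervals within 0.26 of 0 on either side. Over the 8 members the median difference was -0.05, against 0.02 over all probe sets. Members with an unadjusted p under 0.05 in limma were 2 of 8 on chow, Chka and Bhmt, against 18% of all probe sets.

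On the HFD, the members that passed were in the methionine cycle. Bhmt was lower in Ogg1-/- than in WT livers, and Gnmt was slightly higher. In WT livers on the HFD the Bhmt signal ran from 13.39 through a median of 13.63 to 13.77, and in Ogg1-/- livers from 12.72 through 12.97 to 13.18. All 6 Ogg1-/- livers lay below all 6 WT livers. The difference was -0.67 (SE 0.21, 95% CI -1.12 to -0.23), 1.60-fold lower, with a limma adjusted p of 0.0294. The adjusted p was between 0.0543 and 0.0675 when WT mouse 1, 4 or 6 or Ogg1-/- mouse 1 or 4 on the HFD was left out, so that the call did not hold without any 1 of these 5 livers, while the difference stayed between -0.63 and -0.66. Bhmt has 2 further probe sets. The other bright one, with a mean of 13.24, gave -0.67 on the HFD (adjusted p = 0.0321), and the dim one, with a mean of 6.79, gave -0.27 (adjusted p = 0.395). On chow the 3 probe sets lay closer to each other, with genotype differences of -0.67, -0.69 and -0.64 for the one used, the other bright one and the dim one. The files do not say where in the genome each lies, so signal from near-identical gene copies cannot be told apart from that of Bhmt.

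Gnmt, the abundant methyltransferase that consumes S-adenosylmethionine, ran from 12.99 through a median of 13.11 to 13.32 in WT livers on the HFD and from 13.26 through 13.35 to 13.37 in Ogg1-/- livers. The groups overlapped, because the highest WT liver lay above the lowest Ogg1-/- liver. The difference was 0.20 (SE 0.07, 95% CI 0.06 to 0.33), a 1.15-fold higher signal with a limma adjusted p of 0.0366. The call did not hold, with adjusted p from 0.0509 to 0.0952, when WT mouse 2, 3, 5 or 6 or Ogg1-/- mouse 2, 3, 4, 5 or 6 on the HFD was left out, and the Gnmt adjusted p was 0.0663 with reference-gene centring and 0.222 with quantile normalization. Mat1a, which makes S-adenosylmethionine, differed by -0.06 (SE 0.09, 95% CI -0.24 to 0.12) and Cbs by 0.07 (SE 0.08, 95% CI -0.10 to 0.24), neither past the threshold. Their signals ran from 13.31 to 13.60 and from 11.66 to 11.96 in WT livers, and from 13.23 to 13.55 and from 11.73 to 12.00 in Ogg1-/- livers.

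The 4 members of the phosphatidylcholine routes did not pass on the HFD, although Chka, Pcyt1a and Pemt did under some alternatives. Chka ran from 7.89 through 8.42 to 8.56 in WT livers and from 7.67 through 7.98 to 8.22 in Ogg1-/- livers, where WT mice 2 and 3 lay within the range of the Ogg1-/- group. Its difference was -0.33 (SE 0.13, 95% CI -0.59 to -0.08, adjusted p = 0.0633). The adjusted p of Chka was 0.0177 with the replicate number as a block, 0.0442 with dim probe sets left out or with 1 probe set per gene, 0.0445 with the mean over probe sets and 0.0477 with array weights. It was also under the threshold, from 0.0244 to 0.0445, without WT mouse 4 on chow, WT mouse 2 or 3 on the HFD or Ogg1-/- mouse 5 on the HFD. Pcyt1a ran from 8.30 through 8.64 to 8.81 in WT livers and from 7.94 through 8.27 to 8.40 in Ogg1-/- livers, with an overlap and a difference of -0.35 (SE 0.15, adjusted p = 0.0985). Pcyt1a passed with array weights (limma adjusted p = 0.00951), in a limma fit of the HFD livers alone (0.0280) and by the methods' t-test (0.0448). Pcyt2 and Pemt, in contrast, had higher means in Ogg1-/- livers. Pcyt2 ran from 10.61 through 11.13 to 11.21 in WT livers and from 11.22 through 11.26 to 11.39 in Ogg1-/- livers, with a difference of 0.25 (SE 0.11, adjusted p = 0.121). Pemt ran from 12.82 through 13.04 to 13.11 in WT livers and from 13.12 through 13.18 to 13.25 in Ogg1-/- livers, with a difference of 0.17 (SE 0.08, adjusted p = 0.123), and it passed with array weights (limma adjusted p = 0.0259) and by the methods' t-test (0.0234). Neither gene overlapped between the genotypes, although the highest WT liver and the lowest Ogg1-/- liver lay close together for both. Without the chow liver that stood apart, Pcyt1a (adjusted p = 0.00527) and Pemt (adjusted p = 0.0207) passed, as did 25.9% of all probe sets. That liver enters this comparison only through the shared estimate of the spread.

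The count on the HFD was thus 2 of 8 members, 1 higher and 1 lower, and it has to be read against a background in which 19.8% of all probe sets passed, 10.3% higher and 9.55% lower. With the fold of 1.5 added it was 1 of 8 (Bhmt), against 5.89% of all probe sets, and 3 of 8 did not overlap (Bhmt, Pcyt2 and Pemt), against 12.1%. The median difference of the 8 members was 0.00, against 0.02 over all probe sets. An unadjusted p under 0.05 in limma was reached by 6 of 8 members, against 31.5% of all probe sets. The score on the chow axis moved with this comparison. Among the HFD livers its mean was -7.02 ± 11.1 for WT mice and 32.0 ± 13.3 for Ogg1-/- mice (SD over 6 livers each), and the genotypes did not overlap in it. With the score as a covariate, Bhmt differed by -0.13 (adjusted p = 0.660), Gnmt by 0.14 (adjusted p = 0.308), Pcyt1a by 0.00 (adjusted p = 0.990) and Pemt by 0.00 (adjusted p = 0.987), and 0 members passed in this limma fit. Since the score did not overlap between the genotypes, the fit cannot well separate it from genotype. The share of all probe sets that passed in this fit is not given here. With the same covariate Chka still fell on chow, by 0.94 (adjusted p = 0.00105).

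**Figure D2:**
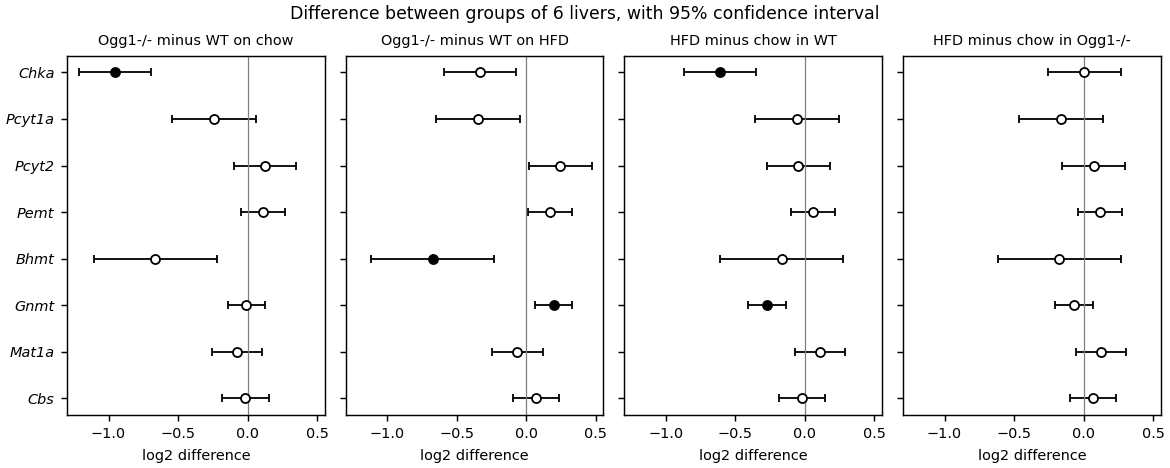
Difference in log2 signal (x axis) for each measured member (y axis) in the genotype comparisons on chow and on HFD and the diet comparisons in WT and in Ogg1-/- livers, with 95% confidence intervals and filled dots for an adjusted p under 0.05. Filled dots are Chka on chow (-0.95), Bhmt (-0.67) and Gnmt (0.20) on the HFD, and Chka (-0.61) and Gnmt (-0.27) for the diet in WT livers.

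Whether the genotype difference itself differed between the diets was tested by the interaction, and 0 of 8 members passed in limma, against 0.00281% of all probe sets, which is 1 probe set. At an unadjusted p under 0.05 there were 2 of 8, against 6.88% of all probe sets. Chka had an interaction of 0.62 (SE 0.18, 95% CI 0.25 to 0.99, unadjusted p = 0.00196, adjusted p = 0.520), since it was -0.95 on chow and -0.33 on the HFD. Gnmt had 0.21 (SE 0.09, 95% CI 0.01 to 0.40, unadjusted p = 0.0370, adjusted p = 0.698). For Bhmt the interaction was -0.01 with a 95% CI of -0.64 to 0.62. A different genotype effect on the 2 diets is therefore not shown for any of these genes.

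The diet comparison in WT livers involved the same members. Chka fell on the HFD by 0.61 (SE 0.13, 95% CI -0.87 to -0.35), 1.53-fold, with a limma adjusted p of 0.0162, and its highest HFD liver, 8.56, lay just under its lowest chow liver, 8.59. This highest HFD liver was WT mouse 5, whose description ends like those of the chow livers. The other WT livers on the HFD have the other ending. Diet and ending can thus hardly be told apart in WT livers, for Chka or for Gnmt, and the part of the ending was not tested. Without WT mouse 4 on chow, the highest of that group at 9.35, the Chka difference was -0.53 (adjusted p = 0.0510), and by the methods' t-test the adjusted p with all livers was 0.0816 in place of the limma value. Gnmt fell by 0.27 (SE 0.07, adjusted p = 0.0438), from a range of 13.33 to 13.47 on chow to 12.99 to 13.32 on the HFD, with no overlap. The Gnmt call did not hold in 17 of the 24 fits that left out 1 liver, with adjusted p up to 0.111. That is 2 of 8 members with an adjusted p under 0.05, both lower, against 0.925% of all probe sets in either direction and 0.394% lower, of which Chka also reached the fold of 1.5, against 0.385%. Both did not overlap, against 2.25% of all probe sets. These comparisons share the WT chow livers with the genotype comparison on chow, so the low Chka in both rests in part on the same 6 livers. The Gnmt differences for diet in WT livers and for genotype on the HFD likewise share the 6 WT livers on the HFD. Those livers had the lowest Gnmt mean, 13.14, against 13.33 in Ogg1-/- livers on the HFD. On chow the Gnmt mean was 13.41 in WT livers and 13.40 in Ogg1-/- livers.

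In Ogg1-/- livers the diet moved no member past the threshold, with 0 of 8 in limma, against 9.53% of all probe sets. It was 0 of 8 at an unadjusted p under 0.05, against 25.3% of all probe sets, and 0 of 8 by the methods' t-test, against 1.62%. The Chka difference was 0.01 with a 95% CI of -0.25 to 0.27, and that of Gnmt was -0.07 with a 95% CI of -0.20 to 0.07. The liver that stood apart belongs to this comparison. Without it, 3 of 8 members passed, against 25.4% of all probe sets, namely Bhmt with -0.46 (adjusted p = 0.00592), Pcyt1a with -0.34 (adjusted p = 0.00903) and Pemt with 0.20 (adjusted p = 0.0115). In order of mean level, Chka was highest in WT livers on chow (8.92 ± 0.25, SD, n = 6), then in WT livers on the HFD (8.31 ± 0.26), and the Ogg1-/- livers on the HFD (7.97 ± 0.21) and on chow (7.96 ± 0.17) did not differ beyond their spread. For Bhmt the order was WT chow (13.78 ± 0.11), WT HFD (13.62 ± 0.14), Ogg1-/- chow (13.12 ± 0.75) and Ogg1-/- HFD (12.94 ± 0.19). The WT groups overlapped, and so did the Ogg1-/- groups. The Bhmt genotype difference was -0.67 on both diets, with an unadjusted limma p of 0.00497 on chow and 0.00451 on the HFD. After adjustment it passed only on the HFD, where 19.8% of all probe sets passed, against 0.478% on chow.

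Within groups, some members varied together, and whether they did so more than other genes was not tested. For each of the 28 pairs, deviations from the group means were correlated over the 24 livers, with 100000 permutations of livers within groups (two-sided permutation test, Benjamini-Hochberg over the 28 pairs). Pcyt1a and Mat1a had a Pearson r of 0.90 (permutation p = 0.00021, adjusted 0.00588) and a Spearman rho of 0.71 (permutation p = 0.00127, adjusted 0.0231). Bhmt and Mat1a had an r of 0.86 (permutation p = 0.00044, adjusted 0.00616) and a rho of 0.74 (permutation p = 0.00165, adjusted 0.0231). Leaving out the 2 livers farthest from the median, r was 0.73 for Pcyt1a and Mat1a and 0.65 for Bhmt and Mat1a. Pcyt1a with Bhmt (r = 0.84) and Pcyt2 with Pemt (r = 0.75) passed by r, with adjusted permutation p of 0.0311 and 0.0203, and not by rho (both 0.0635). Without the 2 farthest livers their r was 0.53 and 0.70. Chka was in no pair that passed by either measure, and its highest r was with Pcyt2, 0.40 (adjusted permutation p = 0.182). Genes outside the lists reached a similar r within groups, 0.92 for Pcyt1a with Csnk1g3 and 0.93 for Bhmt with Aco1. These 2 genes were picked as the most alike of 11145. The correlations among members are therefore not shown to be specific to the pathway.

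The genes whose pattern over the 24 livers was most like that of each member were looked up among 11145 genes with a mean log2 signal of at least 6, as a description only, since livers share group differences and array quality. Chka was most like Arntl, the clock activator BMAL1, with a Pearson r of 0.88 over the 24 livers and 0.42 after group means were removed. Next was Denn2b, which is in none of the lists, with 0.87 over the 24 livers. After group means were removed its r with Chka was 0.56, higher than that of Arntl. Arntl ran from 7.36 to 8.23 in WT livers on chow, from 5.79 to 6.46 in Ogg1-/- livers on chow, from 6.03 to 7.34 in WT livers on the HFD and from 5.82 to 6.13 in Ogg1-/- livers on the HFD. Bhmt was most like Aco1 (0.96), the cytosolic aconitase, and Acox2 (0.96), a peroxisomal oxidase of branched-chain and bile acid precursors. Pemt was most like Mpv17l2 (0.96) and Smdt1 (0.96), Pcyt1a like Csnk1g3 (0.94) and Trmt10a (0.93), and Pcyt2 like Slc25a1 (0.92), the mitochondrial citrate carrier, and Tecr (0.87), an enzyme of fatty acid elongation. Gnmt was most like Mst1 (0.82) and Qdpr (0.79), Mat1a like Pgm1 (0.87) and Dglucy (0.87), and Cbs like Dcaf11 (0.81) and Abcb6 (0.79).

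**Figure D3:**
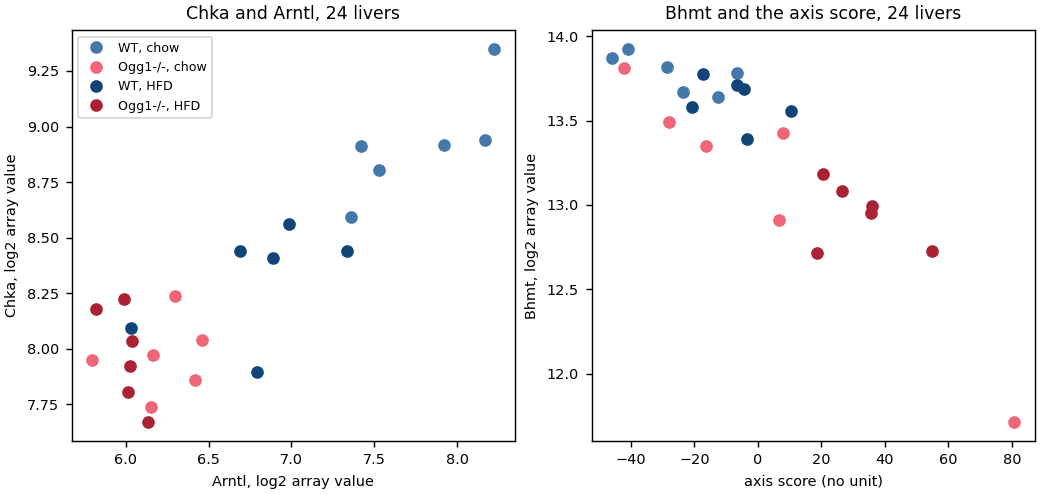
Left, log2 signal of Chka (y axis) against that of Arntl (x axis), and right, log2 signal of Bhmt (y axis) against the score on the chow axis (x axis, no unit), with 1 dot for each of the 24 livers coloured by group. The WT chow livers hold the highest values of Chka and Arntl, and the Ogg1-/- chow liver with a score of 80.8 has the lowest Bhmt signal, 11.72.

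Clock genes moved beside Chka. Of 15 clock genes measured, 9 passed as higher and 1 as lower in Ogg1-/- livers on chow, against 0.478% of all probe sets in either direction. This list was chosen with earlier results of these data known. The study itself reports Usp2, Bhlhe41, Dbp and Arntl as different on chow. The contrasts of clock genes with all probe sets are therefore a description and not an independent test. The median difference of the 15 was 0.57, against 0.02 over all probe sets. The largest were Ciart, a repressor of the clock, by 2.68 (SE 0.31, adjusted p = 1.99e-05), Usp2 by 2.28 (adjusted p = 9.14e-06), Bhlhe41 by 2.18 (adjusted p = 1.57e-06) and Dbp, a factor that binds D-boxes, by 1.63 (adjusted p = 1.95e-06). Arntl fell by 1.56 (SE 0.17, adjusted p = 1.21e-05). On the HFD 10 passed as higher and 2 as lower, where 10.3% of all probe sets were higher and 9.55% lower. Among the higher were Ciart at 2.53 (adjusted p = 0.000102), Usp2 at 1.92 (adjusted p = 0.000189) and Per1 at 1.43 (adjusted p = 0.000588). The lower were Clock at -1.42 (adjusted p = 0.00244) and Arntl at -0.79 (adjusted p = 0.00454). In WT livers 7 clock genes passed as higher on the HFD and 1 as lower, against 0.925% of all probe sets in either direction. The lower gene was Arntl, by 0.98 (adjusted p = 0.00504). No source used here gives the hour at which the livers were taken, and the part of the clock in the Chka differences was not tested.

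Some markers of other liver cells passed on the HFD, where 10.3% of all probe sets were higher and 9.55% lower. On chow no marker of any list passed in limma, and none passed the interaction, so a difference between the diets is not shown. Of 13 endothelial markers 7 were lower and 1 higher in Ogg1-/- livers on the HFD, with Tek at -0.73, Mrc1 at -0.62 and Kdr at -0.60, and their summed log2 signal ran from 109.4 to 113.2 in WT livers and from 106.3 to 108.6 in Ogg1-/- livers. Of 10 stellate cell markers 3 were lower, with Lrat at -0.96, Dcn at -0.85 and Rgs5 at -0.33, and the summed signals overlapped, from 79.1 to 84.2 in WT livers and from 78.7 to 82.4 in Ogg1-/- livers. Of 12 Kupffer cell and macrophage markers 3 were higher and 2 lower, with Vsig4 at -0.85, C1qa at 0.52 and C1qc at 0.44, and of 8 lymphocyte markers Nkg7 was higher (0.42) and Ms4a1 lower (-0.37). Of the 10 hepatocyte markers Asgr1 was higher (0.41) and Fgb lower (-0.43), and Alas2 was higher (0.51) of 2 erythroid markers. The 5 cholangiocyte and 4 adipocyte markers did not pass, and the means of the defining markers Cftr, Adipoq and Lep were under 5 in all groups. In whole liver, fewer cells of a type and less RNA per cell cannot be told apart. The part of these cells in the Bhmt and Gnmt results was not tested.

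The rest of the pathway was covered by 84 further genes in 8 lists. On chow 2 of 84 passed, 2.38% of the list against 0.478% of all probe sets, and both were lower in Ogg1-/- livers. Sardh, which demethylates sarcosine, the product of Gnmt, fell by 0.38 (SE 0.07, adjusted p = 0.0121), from 12.37 ± 0.08 to 12.00 ± 0.14 (SD, n = 6 each). The adjusted p of Sardh was 0.103 in a limma fit of the chow livers alone and 0.112 by the methods' t-test, so the call did not hold in either. Gldc, of the glycine cleavage system that feeds the folate cycle, fell by 0.50 (SE 0.11, adjusted p = 0.0479), from 10.48 ± 0.10 to 9.98 ± 0.26, and this call did not hold in 16 of the 24 fits that left out 1 liver, with adjusted p up to 0.123. The Gldc call was also lost with the replicate block (0.0778), median centring (0.0601), array weights (0.0620), the axis covariate (0.190), a limma fit of the chow livers alone (0.164) and the methods' t-test (0.244). The total on chow was 6 of 84 without Ogg1-/- mouse 6, and it was 1 of 84, Sardh alone, without WT mouse 1, 2, 4, 5 or 6 or Ogg1-/- mouse 2 or 5 on chow, or without WT mouse 1, 2, 4 or 6 or Ogg1-/- mouse 2 or 5 on the HFD. The share of all probe sets in these fits is not given here. In the other lists no gene passed on chow. The smallest p in each belonged to Slc44a1, a choline transporter (-0.62, adjusted p = 0.108, no overlap between the groups), Ptdss1 (0.25, adjusted p = 0.103), Pld1, a phospholipase D that frees choline (-0.49, adjusted p = 0.0716), Mtap (-0.30, adjusted p = 0.216), Srm (0.38, adjusted p = 0.145) and Gss (0.33, adjusted p = 0.151). Pld1 passed without WT mouse 3 on chow, Ogg1-/- mouse 6 on chow or Ogg1-/- mouse 1 on the HFD (adjusted p from 0.0288 to 0.0354), and Srm without Ogg1-/- mouse 6 (adjusted p = 0.0440).

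On the HFD 29 of 84 pathway genes passed, 18 higher and 11 lower in Ogg1-/- livers. That is 34.5% of these genes, against 19.8% of all probe sets, and the excess was not tested. Among choline transporters and phosphatidylcholine remodelling genes 4 of 13 passed, 3 higher and 1 lower, with a median of 0.15. Abcb4, the exporter of phosphatidylcholine into bile, fell by 0.65 (SE 0.15, adjusted p = 0.00532), from a range of 10.63 to 11.02 in WT livers to 10.01 to 10.58 in Ogg1-/- livers, with no overlap. Lcat, the plasma enzyme that moves a fatty acid from phosphatidylcholine to cholesterol, rose by 0.28 (adjusted p = 0.0110), the choline transporter Slc44a2 by 0.29 (adjusted p = 0.0397) and the acyltransferase Lpcat3 by 0.26 (adjusted p = 0.0331). In the ethanolamine and phosphatidylserine branch 3 of 7 passed. Selenoi, which joins activated ethanolamine to diacylglycerol after Pcyt2, fell by 0.38 (adjusted p = 0.00278, no overlap), while Pisd, the mitochondrial decarboxylase of phosphatidylserine, rose by 0.42 (adjusted p = 0.0106, no overlap) and Ptdss1 by 0.20 (adjusted p = 0.0435).

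Among genes of phosphatidylcholine breakdown 6 of 11 passed, 4 higher and 2 lower. Gpcpd1, which cleaves glycerophosphocholine, fell by 1.36 (SE 0.37, 2.57-fold, adjusted p = 0.0131), the largest difference in the 8 lists on the HFD, although its groups overlapped (8.60 to 10.15 in WT livers, 7.12 to 8.69 in Ogg1-/- livers). Lypla2 (0.53, adjusted p = 0.0115), the lysosomal phospholipase Pla2g15 (0.46, adjusted p = 0.00643) and Gde1 (0.36, adjusted p = 0.00965) rose. Choline oxidation, which makes betaine for Bhmt, had 1 of 5 lower, namely its first enzyme Chdh (-0.21, adjusted p = 0.0414).

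In the methionine cycle 3 of 9 genes other than the members passed on the HFD, all lower. Of the members in this cycle that passed, Bhmt was lower and Gnmt higher. The 3 genes other than the members were Ahcyl1, a relative of Ahcy (-0.60, adjusted p = 0.0200), Mtr, the folate-dependent methionine synthase (-0.42, adjusted p = 0.00952), and Mtap, of the methionine salvage pathway (-0.37, adjusted p = 0.0421). Each of them did not overlap between the genotypes. Of 7 other users of S-adenosylmethionine 4 passed, with the thiopurine methyltransferase Tpmt lower (-0.83, adjusted p = 0.0135) and the nicotinamide methyltransferase Nnmt (0.76, adjusted p = 0.00316), the spermidine synthase Srm (0.61, adjusted p = 0.00265) and the indolethylamine methyltransferase Inmt (0.31, adjusted p = 0.00491) higher. In the folate cycle 3 of 20 passed. The mitochondrial Shmt2 (0.48, adjusted p = 0.00244) and the folate carrier Slc19a1 (0.46, adjusted p = 0.00293) rose and the cytosolic Shmt1 (-0.29, adjusted p = 0.0252) fell. In transsulfuration and cysteine metabolism, downstream of Cbs, 5 of 12 passed. Gclc, the catalytic subunit of glutathione's first enzyme, fell by 0.72 (SE 0.17, adjusted p = 0.00629), and its partner Gclm rose by 0.35 (adjusted p = 0.00247), as did the sulfur oxidation genes Suox by 0.48 (adjusted p = 0.000797) and Tst by 0.46 (adjusted p = 0.00713).

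**Figure D4:**
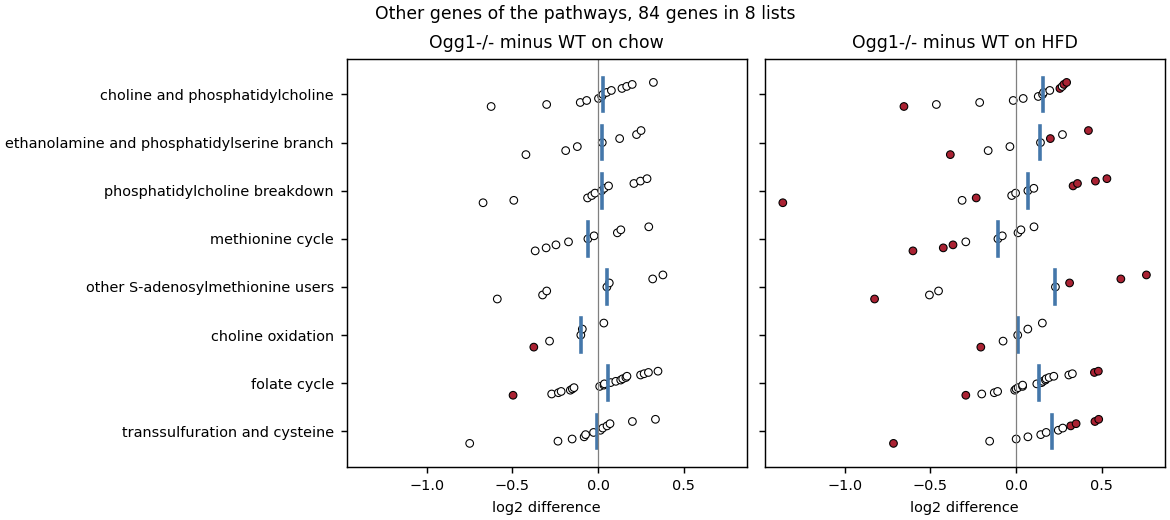
Difference in log2 signal between Ogg1-/- and WT livers (x axis) for the 84 pathway genes other than the members, grouped by list (y axis), on chow and on the HFD, with red dots for an adjusted p under 0.05 and a blue bar for the median of the list. On chow 2 dots are red, and on the HFD 29, with Gpcpd1 farthest to the left at -1.36.

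Of the 26 pathway genes named for the HFD, 19 kept their call in every fit that left out 1 of the 24 livers. Without 1 liver the call was lost for Ptdss1 in 11 fits (adjusted p up to 0.116), Mtap in 9 (up to 0.0997), Slc44a2 in 8 (up to 0.0968), Chdh in 8 (up to 0.111), Lpcat3 in 6 (up to 0.0948), Shmt1 in 5 (up to 0.0695) and Ahcyl1 in 1, without Ogg1-/- mouse 1 on the HFD (0.0573). With the score on the chow axis as a covariate, 3 of the 84 genes passed on the HFD, and these were among the 26 named: Suox (0.40, adjusted p = 0.0133), Gclm (0.34, adjusted p = 0.0228) and Shmt2 (0.29, adjusted p = 0.0449). On the HFD this score cannot well be separated from genotype, and the share of all probe sets in that fit is not given here. The lost calls are therefore not a result about these genes.

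For the interaction 0 of 84 pathway genes passed in limma, against 0.00281% of all probe sets, and 15 had an unadjusted p under 0.05, against 6.88%. Without the liver that stood apart 4 of 84 passed, against 1.52% of all probe sets. The diet in WT livers went with 6 of 84 lower and 0 higher, against 0.925% of all probe sets in either direction and 0.394% lower. The largest of these, named after their values were seen, were Csad, of taurine synthesis (-1.64, adjusted p = 0.0346), Etnppl, which degrades phosphoethanolamine (-1.25, adjusted p = 0.0224), and Ethe1, of sulfide oxidation (-0.77, adjusted p = 0.000966). This count was between 1 and 3 without any 1 of the 6 WT livers on chow or without WT mouse 1, 2, 5 or 6 on the HFD. In Ogg1-/- livers the diet went with 11 of 84 higher and 7 lower, against 9.53% of all probe sets. This total of 18 was 41 without the liver that stood apart, where 25.4% of all probe sets passed, 11 without Ogg1-/- mouse 5 or 6 on chow and 10 without Ogg1-/- mouse 1 on the HFD. For the fits that left out any other liver, the share of all probe sets is not given here.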

How the data were processed

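Liver RNA of 24 mice was hybridised to Affymetrix Mouse Gene ST arrays. The authors deposited 1 table of log2 values per probe set, and the submitters' processing notes name RMA, which corrects background, normalizes by quantiles and summarizes probes. The study's methods describe GC-RMA for part of its analysis, so the exact variant behind the table is not settled. All 24 columns were mapped to samples, and 0 were not used. Of 35556 probe sets, 21789 have 1 symbol in the platform annotation, 1621 several and 12146 none, and 21698 single symbols were matched by Entrez identifier. The array replicates are separate mice, and their number limits the precision. Array correlations lay between 0.952 and 0.993.

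From the deposited log2 values, 1 limma model (limma 3.58.1, R 4.3.3) of the 4 groups was fitted to all probe sets, with Benjamini-Hochberg adjustment. A gene "passed" with an adjusted p under 0.05, and a fold of 1.5 was the additional size threshold. The script was tested on simulated data. Correlations and levels used scipy 1.17.1 and pandas 2.3.3. The members, gene lists and rules were chosen with earlier results of these data known. All members were named, and in each list and genotype comparison up to 4 genes that passed with the largest difference (up to 3 for cell type markers) or, in pathway lists where none passed, the 1 with the smallest p. Genes outside this rule are the cell type markers given beyond 3, Arntl beside Chka, and the genes named for the diet. Alternatives were the replicate block, 3 other normalizations, a filter on mean values of at least 5, array weights, another prior, a fit of the compared groups alone, a single probe set for each gene, averaging the probe sets of a gene, the methods' t-test, the chow axis score as a covariate, a fold of 1.4 and leaving out each of the 24 arrays.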

Additional observations from a re-analysis of the deposited data

Results flagged for a closer look

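Of 36 groups of 6 livers, the values of the 8 members and Ogg1 in 4 groups each, 4 held a liver whose gap to its nearest neighbour was more than 0.625 of the range of the group. Chance alone gives about 1 in 20 such groups. These were Pcyt1a in Ogg1-/- mouse 1 on chow (7.52), Pcyt1a in Ogg1-/- mouse 1 on the HFD (7.94), Pemt in WT mouse 2 on the HFD (12.8) and Ogg1 in WT mouse 4 on chow (6.26). Each was the lowest value of its group. Beyond the shared number 1, the labels give no link between the Pcyt1a livers, and a shared effect was not tested.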

How the results depend on the processing

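Of the members, the 1 that passed on chow was also 1 under every alternative, and leaving out 1 liver gave 1 to 2, with 2 without Ogg1-/- mouse 6 on chow. The 2 members that passed between the genotypes on the HFD became 1 with reference-gene centring or quantile normalization, 5 with array weights, 4 by the methods' t-test, 0 with the chow axis as a covariate, and 0 to 4 with 1 liver left out. Of all probe sets, 22.8% passed by the t-test and 25.9% without Ogg1-/- mouse 1 on chow, against 19.8% in the main fit. For the other fits of this comparison named here the share is not given, so these counts are not read as results about the members alone. The 2 that passed for the diet in WT livers became 1 with the replicate block, median centring, reference-gene centring, quantile normalization or the 2 groups alone, 0 by the t-test, and 0 to 2 with 1 liver left out. Of all probe sets, 0.776% passed there with the block and 1.08% by the t-test, against 0.925% in the main fit. The 0 in Ogg1-/- livers became 3 with array weights, 1 with the axis covariate, and 0 to 3 with 1 liver left out. Of all probe sets, 8189 passed there with array weights and 1690 with the axis covariate, against 3388 in the main fit. With 1 liver left out the number was from 1351 to 9035. These member counts are therefore not read as results about the members alone either. The 0 for the interaction stayed 0 in every limma alternative and with any liver left out. Over all probe sets, same-numbered livers had no general shared deviation (36 pairs, correlations from -0.27 to 0.43, median -0.03). For Chka the lowest liver was number 2 in the chow groups and in WT livers on the HFD, and number 6 in Ogg1-/- livers on the HFD. The highest was number 4 in WT livers on chow and number 5 in the other groups. A replicate effect on single genes was not tested. With the block the members' HFD count was 3, as it was with dim probe sets left out, a fit of the 2 groups alone, 1 probe set per gene or the mean over probe sets. Among the named pathway genes the block lost Gldc on chow (adjusted p = 0.0778) and Chdh on the HFD (0.0585) and gained Pld1 on chow (0.0310). The pathway totals with the block were 2 of 84 on chow, against 0.385% of all probe sets, and 31 of 84 on the HFD, against 19.7%. The cause of these shifts was not tested.

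Small differences turned sign. With the axis covariate Bhmt was 0.25 for the diet in Ogg1-/- livers, 0.10 in WT livers and 0.15 for the interaction. Pcyt1a was 0.11 and 0.12 for the diet in Ogg1-/- and WT livers and 0.0063 on chow. Pemt was -0.019 and -0.028 for these diets, -0.012 on chow and -0.0029 on the HFD. Pcyt2 was -0.066 for the diet in Ogg1-/- livers and -0.0019 on chow, Mat1a 0.048 on chow and 0.11 on the HFD, and Cbs 0.0017 for the diet in WT livers and 0.017 on chow. The mean over probe sets gave 0.13 for the Bhmt interaction. Quantile normalization gave 0.025 for Cbs (diet, WT) and -0.072 for the Mat1a interaction. Median centring gave 0.0030 for Cbs and 0.011 for Gnmt on chow, and reference-gene centring 0.0079 and 0.016. Array weights gave 0.029 for Cbs on chow, -0.030 for Chka (diet, Ogg1-/-) and -0.040 for the Mat1a interaction. Leaving out 1 liver gave -0.29 to 0.13 (Bhmt) and -0.079 to 0.049 (Mat1a) for the interaction, -0.061 to 0.049 (Cbs), -0.04 to 0.029 (Gnmt) and -0.11 to 0.017 (Mat1a) on chow, -0.054 to 0.012 (Cbs), -0.096 to 0.0060 (Pcyt1a) and -0.081 to 0.040 (Pcyt2) for the diet in WT livers, and -0.043 to 0.067 (Chka) and -0.0065 to 0.16 (Pcyt2) in Ogg1-/- livers. Chka on chow lay between -1.02 and -0.87 in these fits.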
